A study of Mus musculus with 2 samples.

Results

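Macrophages of the mouse heart were followed through 9 genes in single-nucleus RNA-seq of an adult and an aged heart: Mrc1, Cd163, Lyve1, F13a1, C1qa, Csf1r, Ccr2, Rbpj and Ptprc. The genes were chosen by name, as genes of resident and of recruited macrophages, and not by their values. Of these 9 genes, 8 had reads in both libraries, out of 24015 genes with reads at 9 weeks and 22691 at 78 weeks, and Ccr2 is not analysed here. All 8 passed the minimum of 20 reads in each library that was used for comparing the ages, as 12736 genes did. Between the adult and the aged heart Lyve1 and C1qa differed most, with 2.65 and 2.51 times the scaled reads in the aged heart, followed by Mrc1 and F13a1 with 1.63 and 1.62 times.

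The study asked how X-inactivation, the silencing of 1 X chromosome in each female cell, holds up with age. One female heart was taken at 9 weeks (adult) and 1 at 78 weeks (aged), and both animals were F1 hybrids of a C57BL/6J (BL6) mother and a CAST/EiJ (CAST) father. The genotype label of both animals is C57BL/6JxCAST/EiJ, whereas the breed label names C57BL/6J∆Xist-/+ as the mother's strain, and neither label gives a treatment or a sort for a cell type. The paper describes both animals as wild-type females of this cross. The name of the aged animal's deposited data gives the digits of the age in reverse order, and the labelled age was used. Nuclei were sorted only for their DNA stain, and only nuclei whose active X chromosome is the BL6 one were pooled by the authors into 1 library per age, over all cell types. The values are reads that cover a position at which BL6 and CAST differ (SNP-overlapping reads), counted per gene and allele.

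The adult library held 9747535 and the aged library 5805807 SNP-overlapping reads. Reads of a gene were therefore divided by all SNP-overlapping reads of the library and given as reads per 1000000 (RPM), and the change with age as the ratio of the aged to the adult RPM. The allelic ratio is the BL6 share of a gene's reads, and the BL6 share of all autosomal reads was 0.534 for the adult and 0.538 for the aged library. With 1 library per age no test is possible, and no p-value is given. Intervals in brackets are exact 95% intervals that cover counting error only, Poisson for an RPM, binomial (Clopper-Pearson) for an allelic ratio and for a ratio of RPM. They take reads as independent. Reads can come from the same nucleus, and whether PCR copies were removed is not given in the sources used here. The intervals may therefore be too narrow, also where they are called clear of each other. In pooled nuclei, a difference in the number of macrophages and one in the RNA per macrophage cannot be told apart, for any gene here. Because SNPs differ in number between genes, levels of different genes are compared only per 10 kb of locus, and even so the SNP density remains in them.

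Macrophages of the adult heart descend in part from embryonic precursors that renew themselves in the tissue and in part from circulating monocytes. Resident cells are known for the endocytic receptors encoded by Mrc1 (CD206), Cd163 and Lyve1 and for clearing debris, whereas the chemokine receptor CCR2 marks cells recruited from blood. Macrophages in general depend on the growth factor receptor CSF1R, and they carry CD45, encoded by Ptprc, as other leukocytes do. RBPJ is the DNA-binding protein through which Notch receptors act in most cell types, and not only in macrophages.

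Promoter sequences are shown because several of these genes are expressed in the same cell type, where the ETS family factor PU.1 (Spi1) is the main lineage factor, and because RBPJ has recognition letters of its own. RefSeq promoters of GRCm38.p6 were matched for 6 of the 9 genes, and 5 of these sequences, from 4 genes, are printed 5′ to 3′ as the 250 bases before a transcription start. Lyve1, C1qa and Csf1r are named only. Capitals mark GAGGAA (the PU.1 core), AGGAAGT (a longer ETS site) and TGGGAA (the RBPJ core), searched on both strands, so that some capitals are the reverse complement of these letters. The first and the second motif can overlap, and did not here.
Mrc1, chr2:14229164-14229413, plus strand: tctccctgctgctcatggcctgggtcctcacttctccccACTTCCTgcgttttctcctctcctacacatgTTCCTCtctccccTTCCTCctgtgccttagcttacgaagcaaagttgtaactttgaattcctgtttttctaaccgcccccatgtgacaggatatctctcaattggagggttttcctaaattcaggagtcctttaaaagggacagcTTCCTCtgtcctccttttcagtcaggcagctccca
F13a1 start 1, chr13:37050245-37050494, minus strand: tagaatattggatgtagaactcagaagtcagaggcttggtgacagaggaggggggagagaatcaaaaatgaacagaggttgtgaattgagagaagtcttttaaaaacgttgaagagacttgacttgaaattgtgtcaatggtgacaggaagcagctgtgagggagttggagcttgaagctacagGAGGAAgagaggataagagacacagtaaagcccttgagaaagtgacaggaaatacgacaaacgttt
F13a1 start 2, chr13:37049214-37049463, minus strand: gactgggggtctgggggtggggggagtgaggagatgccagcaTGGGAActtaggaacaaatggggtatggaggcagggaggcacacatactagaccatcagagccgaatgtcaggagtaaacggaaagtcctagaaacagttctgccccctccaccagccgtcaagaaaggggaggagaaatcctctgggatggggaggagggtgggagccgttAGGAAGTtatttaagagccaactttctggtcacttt
Ptprc start 1, chr1:138175306-138175555, minus strand: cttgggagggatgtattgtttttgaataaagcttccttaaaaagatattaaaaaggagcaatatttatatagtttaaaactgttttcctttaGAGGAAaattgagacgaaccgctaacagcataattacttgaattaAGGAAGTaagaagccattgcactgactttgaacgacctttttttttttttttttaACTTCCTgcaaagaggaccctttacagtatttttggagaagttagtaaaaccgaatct
Rbpj start 1, chr5:53590096-53590345, plus strand: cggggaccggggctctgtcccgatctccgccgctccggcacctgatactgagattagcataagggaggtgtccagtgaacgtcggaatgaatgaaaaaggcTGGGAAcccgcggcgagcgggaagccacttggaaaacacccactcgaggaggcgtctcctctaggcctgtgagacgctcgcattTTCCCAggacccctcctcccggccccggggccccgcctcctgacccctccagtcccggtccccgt
The Mrc1 sequence held GAGGAA at 3 places, 180, 167 and 35 bases before the start, all on the opposite strand, and AGGAAGT 211 bases before it. F13a1 held GAGGAA 66 bases before its first start, and AGGAAGT 36 and TGGGAA 208 bases before the other. In Ptprc, GAGGAA lay 158 bases and AGGAAGT 113 and 58 bases before the start. Rbpj held its own protein's TGGGAA at 149 bases before the start and, on the opposite strand, at 65 bases. The same window of Cd163 had none of these letters. Over all 32841 RefSeq promoters of this length, 23.3% held GAGGAA, 7.69% AGGAAGT and 21.6% TGGGAA, so that a match in a given gene is common and is a description of letters only.

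All 8 genes had a higher RPM in the aged than in the adult heart, on the BL6 as well as on the CAST allele, and 4 of them (Lyve1, C1qa, Mrc1 and F13a1) by at least 1.5-fold. None was lower by 1.5-fold. Over the 12736 genes the RPM was at least 1.5-fold higher for 28.0%, at least 1.5-fold lower for 11.8% and above the adult value at all for 64.2%, so that a ratio above 1 was the more frequent direction in this pair of libraries. The median ratio was 1.52 over the 8 genes and 1.17 over all genes, or 0.61 and 0.22 on the log2 scale. Relative to the median gene, Lyve1 and C1qa were still at least 1.5-fold higher, which 18.0% of all genes were. Mrc1 and F13a1 then stood at 1.40 and 1.39 times. All 8 directions hold relative to all reads: scaled to the summed reads of a list of pan-macrophage genes, Csf1r had a ratio of 0.879, and without Zeb2, Slc9a9 and Fli1 in that list, a choice made after seeing the data, 6 of the 8 ratios were below 1 and Lyve1 (1.54) and C1qa (1.46) above it. The interval of the ratio lay above 1 for 7 of the 8 genes, Csf1r being the exception, and for 42.3% of all genes.

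**Figure D1:**
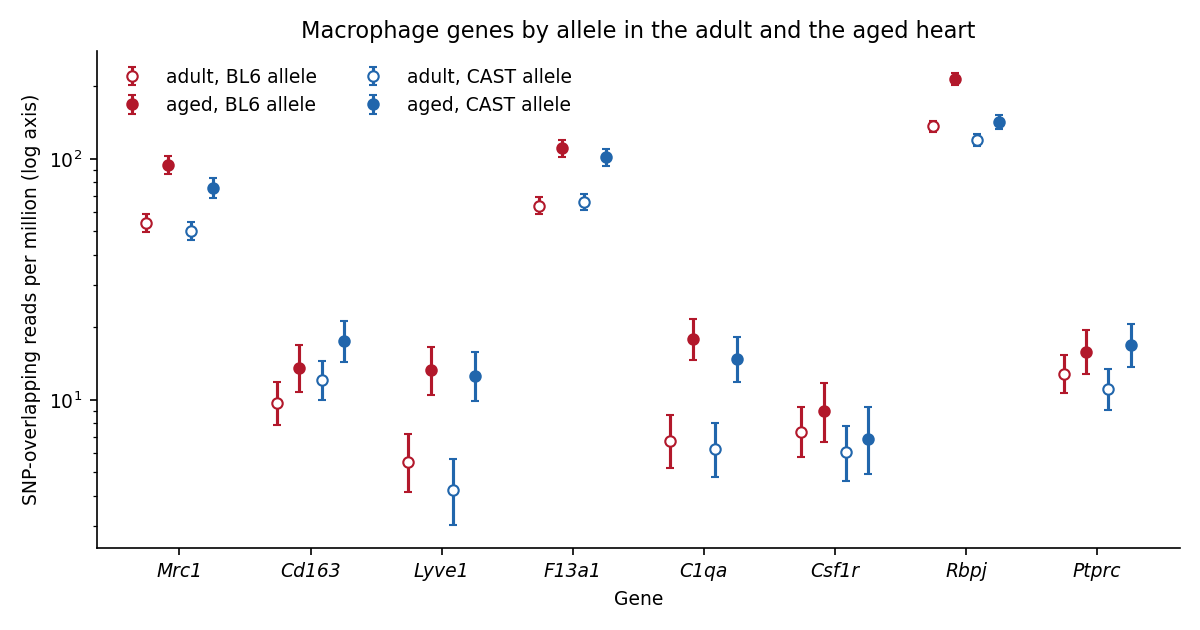
RPM (SNP-overlapping reads, log axis) of the 8 macrophage genes for each allele (red BL6, blue CAST) in the adult (open) and the aged (filled) library. Points are 1 library each and bars are exact 95% Poisson intervals. Filled points lie above open points for both alleles of every gene, and the intervals of a pair are clear of each other on both alleles for Mrc1, Lyve1, F13a1 and C1qa and for Rbpj.

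Mrc1 encodes the mannose receptor, an endocytic lectin that is also made by some endothelial cells. Its locus (chr2:14229414-14332023, plus strand, protein coding) spans 103 kb, of which 6.15% is exonic. The adult library had 527 BL6 and 490 CAST reads, 1017 in all, or 104 RPM (98.0 to 111). In the aged library 548 BL6 and 441 CAST reads were counted, 989 in all, or 170 RPM (160 to 181). The aged library thus held almost as many Mrc1 reads at a lower depth. Its ratio was 1.63 (1.49 to 1.78), with 1.75 for the BL6 and 1.51 for the CAST allele, and 78.1% of all genes had a lower ratio.

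Cd163, the receptor for haemoglobin bound to haptoglobin (chr6:124304630-124330529, plus strand), gave 95 BL6 and 118 CAST reads in the adult, 213 in all, or 21.9 RPM (19.0 to 25). The aged library had 79 and 102 reads, 181 in all, or 31.2 RPM (26.8 to 36.1). With a ratio of 1.43 (1.16 to 1.75) it stayed under 1.5-fold, and both alleles moved alike, by 1.40 on BL6 and 1.45 on CAST. Cd163 was one of 2 genes with more CAST than BL6 reads in the adult heart, the other being F13a1.

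Lyve1, a hyaluronan receptor of a subset of resident macrophages and of lymphatic endothelium, had the largest ratio of the 8 genes. The locus (chr7:110850607-110862953, minus strand) is short, 12.3 kb. There were 54 BL6 and 41 CAST reads in the adult, 95 in all, or 9.75 RPM (7.89 to 11.9), against 77 and 73 reads in the aged library, 150 in all, or 25.8 RPM (21.9 to 30.3). More reads were therefore counted in the shallower library, and the 2 intervals are far apart. The ratio was 2.65 (2.04 to 3.47), with 2.39 (1.67 to 3.46) for BL6 and 2.99 (2.01 to 4.5) for CAST, and 95.9% of all genes had a lower one. At this depth large ratios are more frequent, since 33.3% of the 5472 genes with under 100 reads in 1 library were at least 1.5-fold higher, against 18.9% of the 1201 genes with at least 1000 reads in both. The loci on either side, Rnf141 and Mrvi1, had ratios of 0.578 and 1.47.

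Because Lyve1 is shared with lymphatic endothelium, the markers of that cell type were read beside it. Of 8 such genes 6 had at least 20 reads in both libraries, 4 of them were at least 1.5-fold higher and none lower, and their median log2 ratio was 1.06. Mmrn1 gave 148 adult and 306 aged reads, a ratio of 3.47, and Reln 242 and 368 reads, a ratio of 2.55. Prox1, the transcription factor that defines these cells, and Sema3a had ratios of 1.12 and 1.11, and cardiomyocytes are known to express Prox1 too. Flt4, the lymphatic growth factor receptor, gave 54 and 141 reads, a ratio of 4.38, and was named after its values were seen. The summed level of the list was 229 RPM in the adult and 357 RPM in the aged library. Ccl21a was not analysed here. Lymphatic markers thus moved in the same direction as Lyve1, and their part in its ratio was not tested.

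F13a1, the catalytic subunit of coagulation factor XIII, is also a gene of resident macrophages. It lies on chromosome 13 (chr13:36867178-37050244, minus strand) over 183 kb, of which 3.68% is exonic. Its reads were 623 BL6 and 648 CAST in the adult, 1271 in all, or 130 RPM (123 to 138), and 641 and 588 in the aged library, 1229 in all, or 212 RPM (200 to 224). The ratio of 1.62 (1.5 to 1.76) was close to that of Mrc1. F13a1 reads per Mrc1 read had an interval of 1.15 to 1.36 in the adult heart and of 1.14 to 1.35 in the aged one, and differed by 0.994 times between them. Among other transglutaminase and coagulation genes, 7 of 13 had enough reads, of which 2 were at least 1.5-fold higher (Tgm2, 2.16, and Thbd, 2.38) and 2 lower, Tfpi with 0.398 among them, and their median log2 ratio was 0.29. The annotated locus Gm30489, on the plus strand, shares 103823 bases with F13a1 and had 841 and 781 reads. It had a ratio of 1.56 and allelic ratios of 0.489 and 0.507, close to those of F13a1. Whether reads were counted by strand is not given in the sources used here, so that reads of the 2 loci cannot be told apart.

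C1qa encodes a chain of C1q, the first component of the classical complement pathway, which macrophages make in most tissues. At 2.93 kb its locus (chr4:136895916-136898844, minus strand) is the shortest of the 8, and 35.5% of it is exonic. The adult library had 66 BL6 and 61 CAST reads, 127 in all, or 13 RPM (10.9 to 15.5), and the aged library 104 and 86, 190 in all, or 32.7 RPM (28.2 to 37.7). Its ratio was 2.51 (2.0 to 3.17), with 2.65 for BL6 and 2.37 for CAST, and 95% of all genes had a lower ratio. The genes of the other chains lie beside it. C1qc gave 87 and 101 reads, a ratio of 1.95 (1.45 to 2.63), and C1qb 19 and 25 reads, under the minimum in the adult. C1qc reads per C1qa read were 0.685 in the adult heart (0.515 to 0.907) and 0.532 in the aged one (0.413 to 0.680), with overlapping intervals.

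Of 22 other complement genes 14 had enough reads, 6 were at least 1.5-fold higher and 2 lower, and the median log2 ratio was 0.34. The 6 higher ones, named after their values were seen, were C1qc, the proteases C1ra (2.40) and C1s1 (2.27) that bind C1q, the receptors C3ar1 (3.22) and C5ar1 (2.54), and Itgam (1.83). The 2 lower ones, named in the same way, were Cfd, with 292 and 67 reads and a ratio of 0.385, and Masp1, with a log2 ratio of −0.69. C3, with 131 and 70 reads, had a ratio of 0.897 (0.661 to 1.21). Among its most-read genes, C7, which stromal cells make, had a ratio of 1.13, and the membrane regulators Cd55 and Cd46, which are made by many cells, had ratios of 1.42 and 0.850.

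Csf1r encodes the receptor for the growth factors CSF1 and IL-34, on which macrophage survival depends (chromosome 18, bases 61096809 to 61131139, plus strand). Adult reads were 72 BL6 and 59 CAST, 131 in all, or 13.4 RPM (11.2 to 16.0), and aged reads 52 and 40, 92 in all, or 15.9 RPM (12.8 to 19.4). These intervals overlap. The ratio of 1.18 (0.893 to 1.55) was the lowest of the 8 genes and nearly that of the median gene, with 51.1% of all genes below it. A change between a fall to 0.893 and a rise to 1.55 times was therefore not resolved at this depth. Both ligands were named after their values were seen: Csf1 had 2 reads in each library, and Il34 17 adult and 40 aged reads. Of the 10 genes in the list of ligands and related receptors only Flt3l, Kit and Csf3r had at least 20 reads in both libraries, with ratios of 0.852, 0.819 and 3.57. Their median log2 ratio was −0.23, whereas their summed reads gave a ratio of 1.43 (1.19 to 1.71), so that median and sum differed in sign.

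Recruited cells could be read only indirectly, through other genes, since Ccr2 is not analysed here. Of 20 genes of recruited monocytes and monocyte-derived macrophages 14 had reads, and 4 passed the minimum: Vcan with a ratio of 2.73, Cd44 with 1.96, Itga4 with 1.13 and Fn1 with 0.575. Their median log2 ratio was 0.58. Without overlapping loci only Fn1 and Cd44 were left, which lay in opposite directions. The median of 0.086 is then their midpoint, beside 0.22 for all genes, and gives no direction for the list. All 4 genes are also made by fibroblasts, endothelium or lymphocytes. The markers most specific to monocytes were near the limit of detection, with 9 and 14 reads for Ly6c2 and 12 and 10 for Plac8, which were named after their values were seen. Among the ligands of CCR2, Ccl2 gave 46 reads (16 BL6, 30 CAST) in the adult and 137 (76 BL6, 61 CAST) in the aged heart, a ratio of 5.00 (3.56 to 7.14). Counts of the other ligands were low but lay in the same direction, with 9 and 29 reads for Ccl12, 4 and 9 for Ccl7 and 2 and 9 for Ccl8. The chemokine receptor gene Cxcr6, in the cluster of Ccr2, gave 301 and 57 reads, a ratio of 0.318. It lies inside Fyco1, with 2348 and 748 reads, and these loci share reads that cannot be told apart.

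Rbpj had the most reads of the 8 genes, at a locus (chr5:53466115-53657445, plus strand) of 191 kb. There were 1329 BL6 and 1164 CAST reads in the adult, 2493 in all, or 256 RPM (246 to 266), and 1243 and 824 in the aged library, 2067 in all, or 356 RPM (341 to 372). The ratio was 1.39 (1.31 to 1.48), and 65.9% of all genes had a lower one. It differed between the alleles: the BL6 level was 136 RPM in the adult and 214 in the aged heart, a ratio of 1.57 (1.45 to 1.70), and the CAST level 119 and 142, a ratio of 1.19 (1.09 to 1.3). Processed copies of Rbpj exist elsewhere in the mouse genome, so that a share of exonic reads may be misplaced. Since RBPJ is made in most cell types, its reads do not single out macrophages.

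Genes of the Notch pathway around RBPJ were taken as a list of 23, of which 17 had enough reads, 10 were at least 1.5-fold higher and 1 lower, with a median log2 ratio of 0.64. The lower one was Maml3, a coactivator, with 4299 and 1506 reads and a ratio of 0.588, whereas its relative Maml2 had a ratio of 1.86. Numb, an inhibitor of Notch, had a ratio of 1.56, and Adam10, the protease that cuts the receptor, 0.805. The receptor gene Notch1 (146 and 216 reads, 2.48) and the ligand gene Jag1 (179 and 253 reads, 2.37), both named after their values were seen, are expressed mainly by vessel cells in this tissue.

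Ptprc encodes CD45, the phosphatase of the surface of all leukocytes (chr1:138062859-138175756, minus strand). The reads were 125 BL6 and 108 CAST in the adult, 233 in all, or 23.9 RPM (20.9 to 27.2), and 92 and 98 in the aged heart, 190 in all, or 32.7 RPM (28.2 to 37.7), a ratio of 1.37 (1.12 to 1.67). Lymphocytes carry Ptprc too, and their marker genes went the other way. Summed over the lymphocyte list, 1186 adult and 342 aged reads gave 122 and 58.9 RPM, a ratio of 0.484 (0.428 to 0.547). Only 3 of its 20 genes had at least 20 reads in both libraries, since 8 did in the adult and 3 in the aged, and Bank1, Skap1 and Lck had ratios of 0.819, 0.293 and 0.999. Themis, a gene of T cells that was named after its values were seen, gave 272 adult and 16 aged reads. Cd3e, Cd3g and Cd8a had no read in the aged library. What share of the Ptprc reads came from lymphocytes was not tested.

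Set against Ptprc within each library, which needs no scaling, Lyve1 gave 0.408 reads per Ptprc read in the adult (0.318 to 0.520) and 0.789 in the aged heart (0.633 to 0.983). C1qa gave 0.545 (0.436 to 0.679) and 1.00 (0.814 to 1.23). Both pairs of intervals are clear of each other. Mrc1 gave 4.37 reads per Ptprc read (3.78 to 5.05) and 5.21 (4.45 to 6.11), Cd163 0.914 and 0.953, and Rbpj 10.7 and 10.9, all with overlapping intervals. Lyve1 per Mrc1 read likewise went from 0.0934 (0.0749 to 0.115) to 0.152 (0.127 to 0.180). Rbpj per Mrc1 read went the other way, from 2.45 (2.28 to 2.64) to 2.09 (1.94 to 2.26). Ptprc, the reference for most of these values, is carried by lymphocytes too. All of these values reuse the reads behind the RPM ratios, in which Lyve1 and C1qa were already the highest. They describe this pair of hearts and add no independent evidence.

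Per 10 kb of locus, C1qa had the highest level in both hearts, 44.5 RPM in the adult (37.1 to 52.9) and 112 in the aged one (96.4 to 129). It was followed in the adult by Rbpj (13.4), Mrc1 (10.2), Cd163 (8.44), Lyve1 (7.89) and F13a1 (7.12), and from Mrc1 to F13a1 each interval overlaps the next in this order. Csf1r (3.92) and Ptprc (2.12) came last. In the aged heart Lyve1, at 20.9 RPM per 10 kb (17.7 to 24.6), stood second, with an interval that overlaps that of Rbpj at 18.6 (17.8 to 19.4). Mrc1 (16.6), Cd163 (12), F13a1 (11.6), Csf1r (4.62) and Ptprc (2.90) followed, and of these neighbours only Cd163 and F13a1 have overlapping intervals. Reads in nuclei are largely intronic, and the exonic part differs between the loci, so that this order mixes length with transcript structure.

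**Figure D2:**
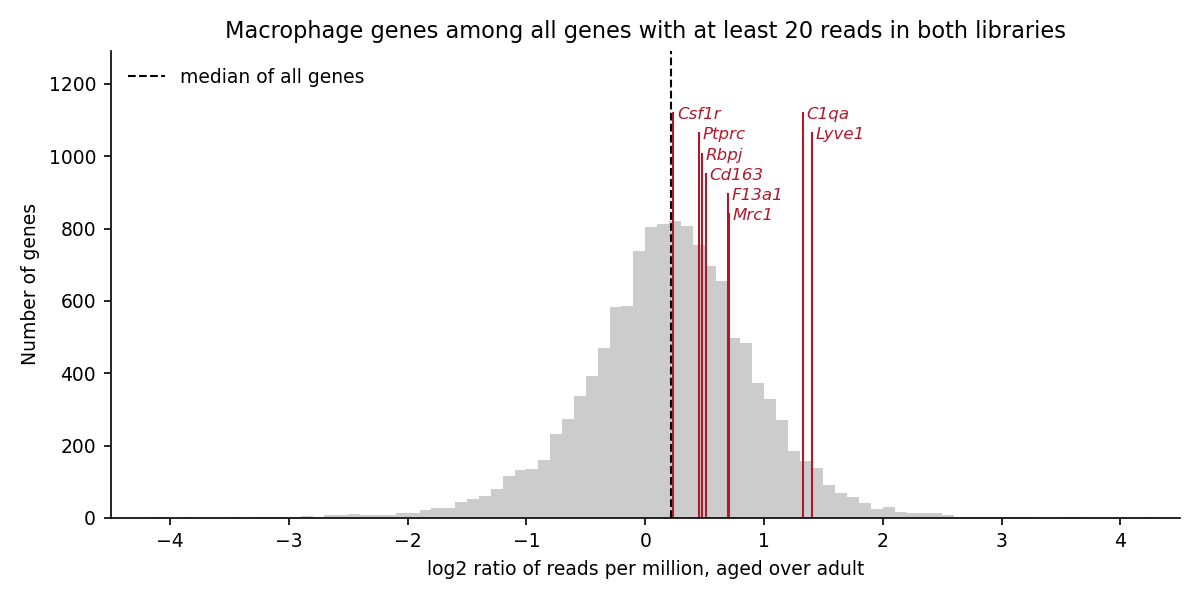
Histogram of the log2 ratio of RPM, aged over adult, for the 12736 genes with at least 20 reads in both libraries (grey, number of genes on the vertical axis), with the macrophage genes as red lines, whose heights carry no value, and the median of all genes, 0.22, dashed. All 8 lines lie to the right of the median, Csf1r next to it and C1qa (1.33) and Lyve1 (1.41) in the right tail.

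All 8 genes are autosomal, so that both alleles are expected to be read in nuclei chosen for their active X chromosome. Adult allelic ratios ran from 0.446 (Cd163) to 0.568 (Lyve1), and aged ones from 0.436 (Cd163) to 0.601 (Rbpj). No gene lay 0.1 or more from the autosomal BL6 share in the adult, and 1 did in the aged heart, Cd163, against 30.0% and 37.4% of autosomal genes. None changed by 0.1 or more between the ages, against 28.0%. With respect to counting error, the interval left out the autosomal share for 2 genes in the adult, Cd163 and F13a1, and for 2 in the aged heart, Cd163 and Rbpj, whereas 44.5% and 45.4% of autosomal genes did so.

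Rbpj was the one gene of the 8 whose change in allelic ratio had an interval that left out 0, which 26.5% of autosomal genes had. Its allelic ratio was 0.533 in the adult (0.513 to 0.553) and 0.601 in the aged heart (0.580 to 0.623), with a Newcombe interval of −0.0969 to −0.0394 for the adult minus the aged value. Depth has a large part in such a count, since 49.4% of the 1175 autosomal genes read at least 1000 times in each library had such an interval, and 12% of them had an allelic ratio higher by at least 0.05 in the aged heart, as Rbpj had. No replicate shows how much an allelic ratio varies between hearts of 1 age.

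Cd163 kept its lean to CAST in both hearts, with 0.446 (0.378 to 0.516) and 0.436 (0.363 to 0.512), or 0.0878 and 0.101 below the autosomal share. F13a1 stood at 0.490 (0.462 to 0.518) and 0.522 (0.493 to 0.550), and Mrc1 at 0.518 (0.487 to 0.549) and 0.554 (0.523 to 0.585). Values for the less read genes had wide intervals. For Lyve1 they were 0.568 (0.463 to 0.670) and 0.513 (0.431 to 0.596), for C1qa 0.520 and 0.547, for Csf1r 0.550 and 0.565, and for Ptprc 0.536 and 0.484. These 4 genes had 92 to 233 reads, and all of their intervals held the autosomal share. In all, the allelic ratio was higher in the aged heart for 5 genes and lower for 3.

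**Figure D3:**
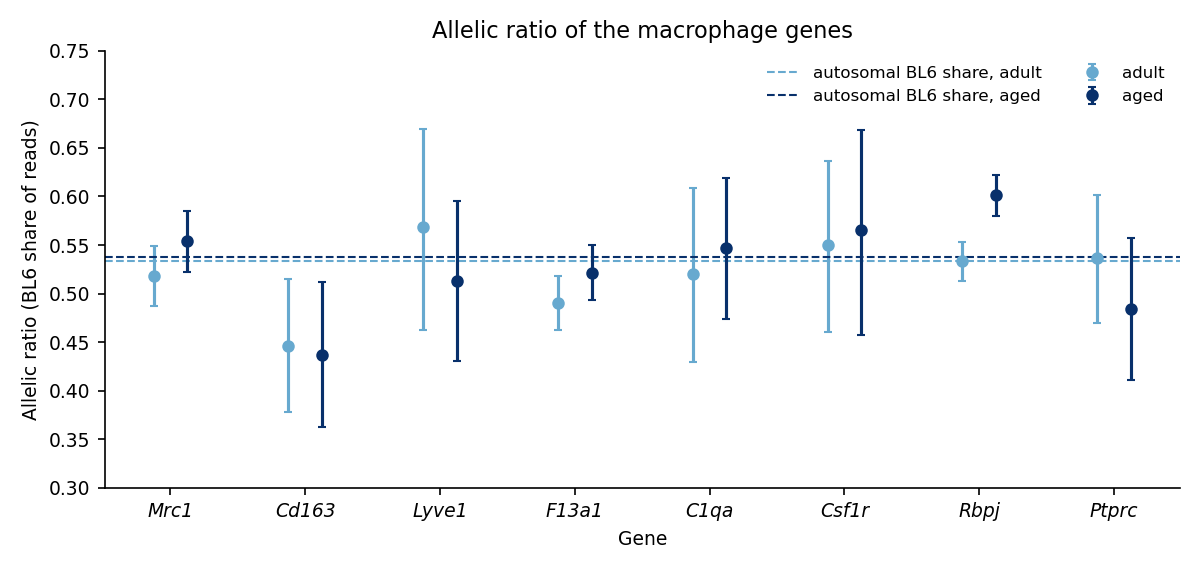
Allelic ratio (BL6 share of reads, vertical axis from 0.3 to 0.75) of the 8 genes in the adult (light) and aged (dark) library, with exact 95% binomial intervals and the autosomal BL6 share of each library dashed. Both Cd163 intervals lie below the dashed lines and the aged Rbpj interval above them.

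Other macrophage markers were read to see whether the 8 genes stand for the cell type. Of 24 pan-macrophage genes 15 had at least 20 reads in both libraries, all 15 had a ratio above 1, 9 were at least 1.5-fold higher and none lower. Their median log2 ratio was 0.79, next to 0.61 for the 8 genes, and their summed level was 630 RPM in the adult and 845 RPM in the aged heart, a ratio of 1.34 (1.29 to 1.39). That sum rests on Zeb2 (ratio 1.23), Slc9a9 (1.16) and Fli1 (1.38), which endothelial and other cells make as well, and on Mertk (1.19), the receptor for dying cells. The other 11 ran from 1.10 (Laptm5) to 3.57 (Csf3r). Among them, all named after their values were seen, were Tyrobp with 1.33, Adgre1 (F4/80, 241 and 246 reads) with 1.71, Itgam (CD11b, 101 and 110 reads) with 1.83 and Spi1 (PU.1, 45 and 75 reads) with 2.80. Several defining markers were hardly read, with 2 and 6 reads for Cd68, 3 and 5 for Cx3cr1 and 0 and 1 for both Aif1 and Fcer1g, and Fcgr1 was not analysed here.

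Resident macrophage genes other than the 8 gave a similar median with a wider spread. Of 20 genes 11 had enough reads, 5 were at least 1.5-fold higher and none lower, with a median log2 ratio of 0.53. The endocytic adaptor Dab2 had 1017 and 1237 reads and a ratio of 2.04, the scavenger receptor Colec12 had a ratio of 1.51, and Gas6, the ligand of MERTK, one of 1.45. Igf1 went the other way, with 925 and 386 reads and a ratio of 0.701, short of 1.5-fold lower. Timd4, named after its values were seen as a gene of self-renewing macrophages, gave 50 and 34 reads and a ratio of 1.14 (0.716 to 1.80). Dab2, Colec12, Gas6 and Igf1 are read in fibroblasts or endothelium too.

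Among scavenger receptors and relatives of the mannose receptor, 9 of 13 had enough reads, 5 were at least 1.5-fold higher and 1 lower, and the median log2 ratio was 0.60. Mrc2, the relative of Mrc1 found on fibroblasts, had 549 and 1068 reads and a ratio of 3.27, and Stab1, a receptor of resident macrophages and sinusoidal endothelium, 308 and 572 reads and a ratio of 3.12. The lower one was Cd36, the fatty acid transporter of cardiomyocytes and capillaries, with a ratio of 0.544 from 16935 and 5484 reads, so that the summed ratio was 0.775, opposite in sign to the median. Genes of antigen presentation and dendritic cells, 9 of 18 with enough reads, had a median log2 ratio of 0.48, with 3 at least 1.5-fold higher and none lower. H2-Ab1 and H2-Aa, the chains of an MHC class II molecule, had ratios of 1.84 (1.29 to 2.62) and 1.06 (0.754 to 1.48), H2-DMa one of 1.23 and Zbtb46, also an endothelial gene, one of 2.26.

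Macrophage genes were not the only cell type's genes with more scaled reads in the aged heart. The median log2 ratio was 1.13 for pericyte and smooth muscle genes, 7 of 8 of which were at least 1.5-fold higher, and 0.75 for fibroblast genes, with 5 of 9 higher and 1 lower. It was 0.33 for endothelial genes, with 4 of 9 higher and none lower, and 0.20 for cardiomyocyte genes, with 2 of 10 higher and 1 lower. Cardiomyocyte genes held 30953 RPM in the adult and 29565 RPM in the aged library. Of these 10 genes 8 had a ratio above 1 and 2 a ratio below it. Ttn, the 1 gene at least 1.5-fold lower, gave 11849 and 6872 RPM, a ratio of 0.580. The other most-read genes, Ryr2, Atp2a2 and Myh6, had log2 ratios of 0.20, 0.15 and 0.20. Mast cell genes, which share Kit with other cells, were read in 2 of 8 cases, with summed levels of 9.85 and 9.47 RPM. The part of these other cell types in the macrophage ratios was not tested.

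**Figure D4:**
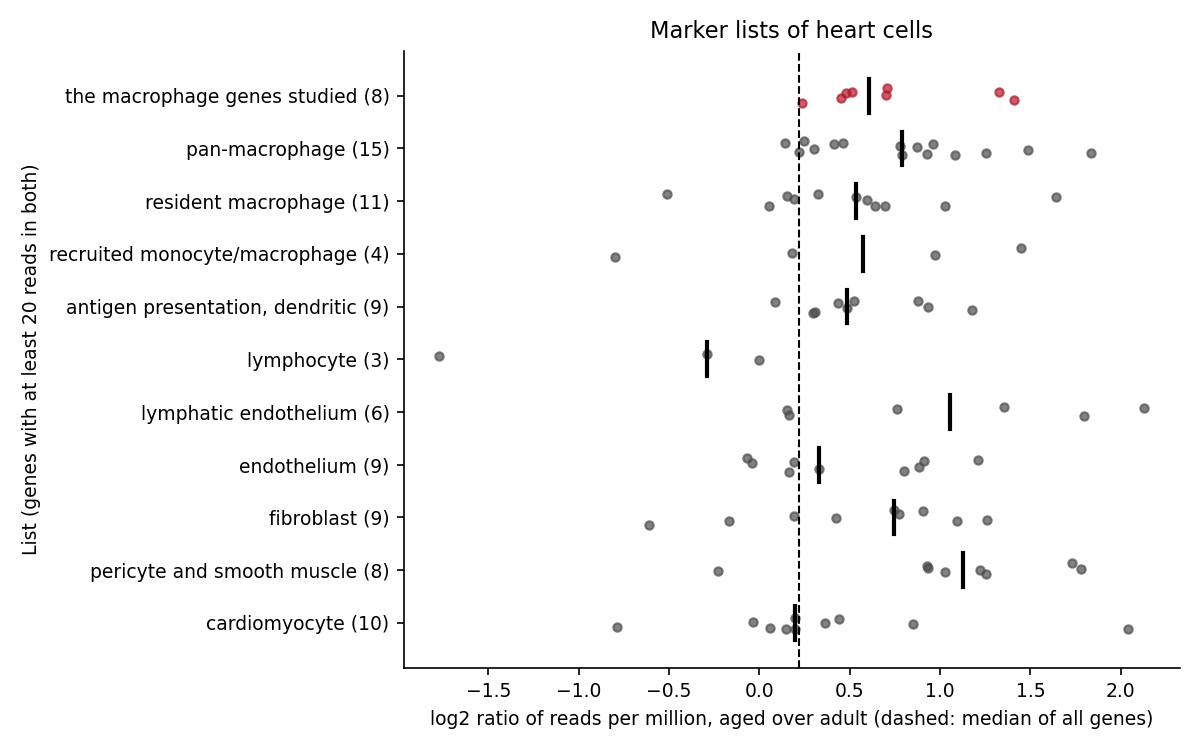
Each point is the log2 ratio of RPM, aged over adult, of 1 gene with at least 20 reads in both libraries, for the 8 macrophage genes (red) and for 10 marker lists (grey), with the number of genes in brackets. Black bars are the medians, the dashed line is the median of all genes, and vertical scatter within a row carries no value. Macrophage medians (0.53 to 0.79) lie above the dashed line at 0.22. So do those of fibroblast (0.75), lymphatic endothelium (1.06) and pericyte and smooth muscle (1.13) genes, whereas that of lymphocyte genes (−0.29) lies below it. The recruited median rests on 4 genes. Without overlapping loci only Fn1 and Cd44 were left, with a midpoint of 0.086, below the dashed line.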

How the data were processed

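Per the labels and the study's methods, the authors aligned 10x single-nucleus reads of 1 adult and 1 aged heart to mm10 with Cell Ranger 7.1.0, kept nuclei with a BL6 active X chromosome, and counted SNP-overlapping reads per RefSeq gene with Allelome.PRO2. The deposited read counts per allele were not normalized. The deposited allelic ratio is a fraction, the BL6 share rounded to 2 decimals, and the deposited allelic score was not used. The study's methods name CellBender for ambient RNA and DoubletFinder for doublets, both on gene count matrices, whereas allele reads were taken from the alignments, and whether either step bears on these counts, or PCR copies were removed, is not given in the sources used here. From the counts, RPM, allelic ratios and exact 95% intervals (SciPy 1.17.1) were computed, and functions were tested on simulated data. Deposited starts count from 0 and are given here from 1. Samples were grouped by the age label, at 9747535 and 5805807 reads. The 9 genes and the 18 marker lists were chosen with earlier results of these data known. All 9 genes are reported, and of each list the 4 most-read genes with at least 20 reads in both libraries and neighbours of the 9 genes, apart from 1 gene that is not reported here, and others are marked as named after their values were seen. Alternatives were other minimums (10, 50, 100), folds (1.25, 2), allelic distances (0.05, 0.2), scalings, single alleles, the deposited allelic ratio and leaving out overlapping loci.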

Additional observations from a re-analysis of the deposited data

How the results depend on the processing

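No paired analysis was possible because each age has 1 library, and no result rests on a test. Of 126 alternative values, 92 stayed within counting error or, for counts of genes, within 1.5 times the reported count. The 4 genes at least 1.5-fold higher became 3 at a minimum of 100 reads, 5 with the reads of either allele alone, 7 at the lower fold tried (43.7% of all genes), 2 at 2-fold (11.5%), 2 when scaled by the median of gene ratios and 2 when scaled to the reads of the pan-macrophage list, where Lyve1 (1.98) and C1qa (1.87) remained above 1.5-fold and Csf1r stood at 0.879. The last scaling without Zeb2, Slc9a9 and Fli1, chosen after seeing the data, left 1 gene, Lyve1, at 1.54. Apart from the counts at other folds, the share of all genes under the same setting is not given here. These counts therefore cannot be read against their background. Under it 6 of the 8 ratios fell below 1, with Mrc1 at 0.951 and F13a1 at 0.946, whereas with the full pan-macrophage list 7 of the 8 stayed above 1, with Mrc1 at 1.22, F13a1 at 1.21, Cd163 at 1.06, Rbpj at 1.04 and Ptprc at 1.02. The median of all genes was 0.22 on the log2 scale as reported, 0.01 under the median of ratios, −0.20 under the pan-macrophage scaling and −0.56 without the 3 genes. Rbpj gave 1.56 from BL6 and 1.20 from CAST reads, each scaled to its own allele. The count of allelic ratios at least 0.1 from the autosomal share became 1 in the adult and 3 in the aged heart at a distance of 0.05 (56.2% and 63.6% of autosomal genes), and 0 in the aged heart at 0.2 or with the deposited ratio. The allelic ratio changed by at least 0.05 in 3 genes, and in 54.5% of autosomal genes. The recruited list's median of 0.58 became 0.97 at minimums of 50 and 100 reads. Without overlapping loci it became 0.086, the midpoint of Fn1 and Cd44, which alone were left. Depth limits Csf1r, Lyve1 and C1qa most.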

Other observations

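Several macrophage genes on the X chromosome, read as a list of 14, had an active copy on BL6 in these nuclei, and 6 of them passed the minimum of 20 reads in each library. Their median log2 ratio was 0.25, with 2 at least 1.5-fold higher and none lower. Msn, which many cells make, gave 893 adult and 813 aged reads with allelic ratios of 0.976 and 0.982, and Vsig4, a complement receptor of resident macrophages, 74 BL6 and 0 CAST reads in the adult heart and 48 and 1 in the aged one. Tlr7, an RNA sensor, gave 55 BL6 reads and 1 CAST read in the adult heart and 48 and 6 in the aged one. Cybb, the catalytic subunit of the phagocyte oxidase, was less skewed, with 57 BL6 and 17 CAST reads at 9 weeks and 34 and 15 at 78 weeks. Gpr34 and Il13ra1 passed the minimum too. Gpr34 gave 55 BL6 and 4 CAST reads at 9 weeks and 44 and 0 at 78 weeks, and Il13ra1 32 and 2, then 22 and 1. Tlr8, under the minimum in the adult, gave 10 BL6 and 0 CAST reads at 9 weeks and 19 and 16 at 78 weeks. These 3 genes were named after their values were seen. CAST counts of the listed genes thus did not all move alike.

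On autosomes, 2 macrophage genes named after their values were seen had few CAST reads, Ms4a7 in both hearts and Folr2 in the aged heart only. Ms4a7 gave 30 BL6 and 0 CAST reads at 9 weeks and 32 and 2 at 78 weeks. Folr2, a folate receptor of resident macrophages, gave 28 BL6 and 19 CAST reads at 9 weeks and 27 and 2 at 78 weeks. Its allelic ratio was 0.596 (0.443 to 0.736) and 0.931 (0.772 to 0.992) at almost the same RPM, 4.82 and 5.00. These values rest on 47 and 29 reads of 1 heart per age. Of all autosomal genes with at least 20 reads in both libraries, 28.0% changed by at least 0.1.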
